A study of Mus musculus with 9 samples.

Results

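The clustered replication-dependent histone genes were followed in HT22 cells, an immortalized line derived from mouse hippocampal neurons, after oxygen-glucose deprivation (OGD) and after vesicle treatment. They were chosen by annotation, as all protein-coding genes whose symbol starts with Hist1h, Hist2h, Hist3h or Hist4h. This gave 67 of 54532 genes. There were 6 linker histone H1 genes, 18 H2A genes, 18 H2B genes, 12 H3 genes and 13 H4 genes. Of these, 54 lay in the Hist1 cluster on chromosome 13 (mm10), 10 in the Hist2 cluster on chromosome 3, 2 in Hist3 on chromosome 11, and Hist4h4 lay alone on chromosome 6. The study sequenced 9 libraries of wild-type HT22 cells in 3 groups of 3. OGE cells had 2 h of OGD and then 24 h of reoxygenation in the presence of hiPS-MSC-EVs, extracellular vesicles from mesenchymal stem cells made out of human induced pluripotent stem cells. OGP cells went through the same 2 h and 24 h but received PBS instead of vesicles. Control cells were left untreated, so that they differ from OGP cells in OGD, reoxygenation and the change of medium together. The sources differ on the medium during reoxygenation. The labels name the standard medium, which holds serum, while the methods also name media with vesicle-depleted serum or no serum, so whether OGE and OGP cells had the same serum is not known. All 3 groups are a single line, and the labels do not say whether replicates came from separate cultures, so the tests measure the spread between these libraries, which may be technical.

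Replication-dependent histone genes supply the histones that package newly copied DNA, and most of them are transcribed in S phase. Their mRNAs are the exception among animal mRNAs. They normally end a few bases after a conserved stem-loop, bound by the stem-loop binding protein SLBP, and carry no poly(A) tail. Some of these genes can also give a longer, polyadenylated mRNA, made from a poly(A) signal further downstream, as is known from cells that have stopped dividing. The libraries here were made from RNA caught on poly-T beads, so what was counted is the part of the histone mRNA that the beads retained.

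The transcript models were searched for both kinds of 3′ end, a stem-loop and a poly(A) signal near the last base. The stem-loops of the highest members and of Hist1h3a, which was lower in OGE than in control cells, are shown first, with the 16 bases of the stem-loop in capitals and 5 bases on each side. They come from GENCODE M21 transcripts on mm10. They lie at chr13:23739507-23739532 on the plus strand for Hist1h1c, at chr13:22040961-22040986 on the minus strand for Hist1h4i, and at chr13:23761885-23761910 on the minus strand for Hist1h3a, all in the 3′ UTR.
Hist1h1c: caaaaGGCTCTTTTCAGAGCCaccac
Hist1h4i: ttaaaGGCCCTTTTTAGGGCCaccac
Hist1h3a: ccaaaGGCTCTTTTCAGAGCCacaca
The spelling shared by Hist1h1c and Hist1h3a was the most frequent, and 25 members had it. That of Hist1h4i was found in 2, itself and Hist2h4. The last 30 bases of the models of Hist1h1c, Hist1h4i and Hist2h2be follow, because these 3 end with a poly(A) signal, AATAAA or ATTAAA, shown in capitals. They lie at chr13:23740338-23740367 (plus strand), chr13:22040636-22040665 (minus strand) and chr3:96223709-96223738 (plus strand).
Hist1h1c: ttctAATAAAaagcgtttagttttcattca
Hist1h4i: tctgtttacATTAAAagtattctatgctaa
Hist2h2be: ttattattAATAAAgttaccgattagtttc

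The model of Hist1h1c ran on for 840 bases past its stem-loop to its last base, with the signal in the last 26, and that of Hist1h4i for 330 bases, with the signal in the last 21. That of Hist1h3a stopped 37 bases past the stem-loop, without a signal. Over all members, 46 of 67 had a stem-loop in at least 1 model and 21 had none. The search was for 16-base stem-loops of the usual pattern, on the transcript strand. A poly(A) signal within the last 40 bases was present in 17 members, 32 had a stem-loop without such a signal, and 18 had neither. Of these 18, Hist1h4k and Hist1h3i have models of 312 and 411 bases, the length of the coding sequence alone, so that there was no 3′ UTR to search. A model that ends at a signal shows only that such an end was annotated. It does not say which end was used in these cells.

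The members with a poly(A) signal at the end of the model took 79.99% of all reads in histone genes, members with a stem-loop alone 11.8%, and members with neither 8.24%. Most of the reads in the set with the signal came from 2 genes. The median level in the 3 sets was 0.177, 0.279 and 0.222 FPKM (FPKM counts fragments per gene, divided by gene length and by library depth), and thus not higher in the set with the signal. The plot of level against the 3′ end of the model has Hist1h1c and Hist1h4i far above all others in that set, while its other 15 members lie within the range of the rest.

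**Figure D1:**
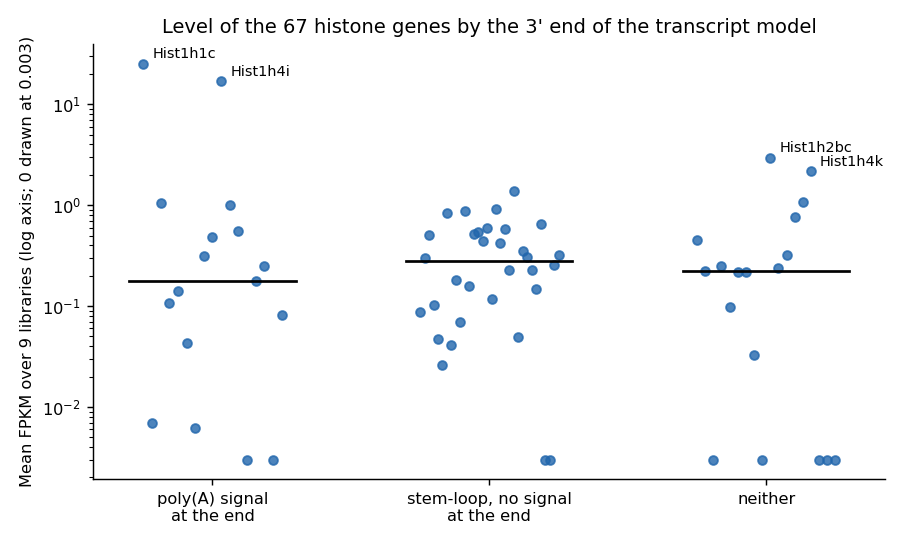
Mean FPKM over the 9 libraries (log axis, 0 drawn at 0.003) of the 67 histone genes, 1 point a gene, in 3 columns by what the transcript model holds at its 3′ end; black lines are medians (0.177, 0.279 and 0.222 FPKM). Hist1h1c and Hist1h4i stand alone at the top of the column with a poly(A) signal at the end, and the medians of the columns lie close together.

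The promoters of these genes share elements that most promoters lack. RefSeq promoters (GRCm38.p6, 250 bases before and 50 after the start) were matched for 61 members, with 62 promoters. Promoters of neighbouring H2A and H2B genes that face away from each other overlap, so these are not independent sequences. CCAAT, a box bound by NF-Y, stood on either strand in 85.5% of member promoters and in 37.3% of the 32789 other promoters. All 17 H2A, 17 H2B, 10 H3 and 6 H1 promoters had it, against 3 of 12 H4 promoters. TATAAA, the TATA box, stood in 56.5% of member promoters and in 13.5% of the others. The octamer ATTTGCAT, bound by Oct-1, was found in 7 H2A and 7 H2B promoters and in no H1, H3 or H4 promoter, which makes 22.6% of member promoters against 1.70% of the others. A match is a description of letters and not of a bound site. The promoter of Hist1h1c held CCAAT and neither of the other motifs, and that of Hist1h4i held TATAAA alone.

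Depth sets what can be read from these genes. The libraries held 15026700 to 19476806 reads in genes, and FPKM times gene length came out as a whole number of reads in each library. A read count of 0 allows up to 3 reads per library from counting error alone. All 67 members together took 11116 of 154152646 reads. Hist1h1c took 55.4% of these, and Hist1h1c, Hist1h4i and Hist1h2bc together took 77.6%. Every other member had at most 32 reads in any library. In 36 lower members with at least 18 reads over the 9 libraries, the variance of the reads within groups was 0.244 to 4.199 times their mean, with a median of 1.4998, where pure counting gives a ratio near 1. Libraries were not equal either. Control replicate 1 and OGE replicate 3 stood apart from the other libraries of their groups on the third principal component of all genes tested (33.1 and -19.4). The label of the cells could be checked in part. Of 11 neuron markers, Tubb3 and Map2 passed the filter on low values, while Rbfox3, Nefl, Nefm, Dcx, Grin1 and Gria1 were at or close to 0 FPKM.

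Of the 67 members, 19 averaged 0.5 FPKM or more across the 9 libraries and were tested, and 48 did not. These 19 were 1 H1, 3 H2A, 5 H2B, 6 H3 and 4 H4 genes, and 18 of them lay in the Hist1 cluster. Only 7 reached a mean of 1 FPKM. Below the filter, 39 members had some reads and 9 had none in any library. The highest FPKM of any of these 48 in a library was 1.18. Near-identical copies matter here, because a read that fits several genes may be lost or split in counting. Windows of 150 bases, the length of a read, were compared between the models of different genes. In 54 members at least 1 window recurred in another gene, and in 24 members at least 50% of the windows did. Of the 9 members with no reads, 6 were among these 24, all from the Hist2 cluster. These counts include windows shared with a gene model that overlaps the member at the same place, which is not a copy. Hist2h2ab shared windows with the overlapping Gm15444 alone, and Hist2h2bb with the overlapping Gm20628 and Gm42743 alone. Both are among the members with no reads. Hist3h2a shared windows with the overlapping Trim17 alone. Hist1h1c and Hist2h2be shared no window with another gene, Hist1h4i shared 2.08% and Hist1h2bc 17.4%. Values of the highly similar members are uncertain for this reason. Many H2A genes also overlap an annotated miRNA on the other strand, each at 0 FPKM. Hist2h2aa1 and Hist2h2aa2, without reads themselves, overlap antisense genes at 0.588 and 0.867 FPKM, and the sources used here do not say whether reads were counted by strand.

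**Figure D2:**
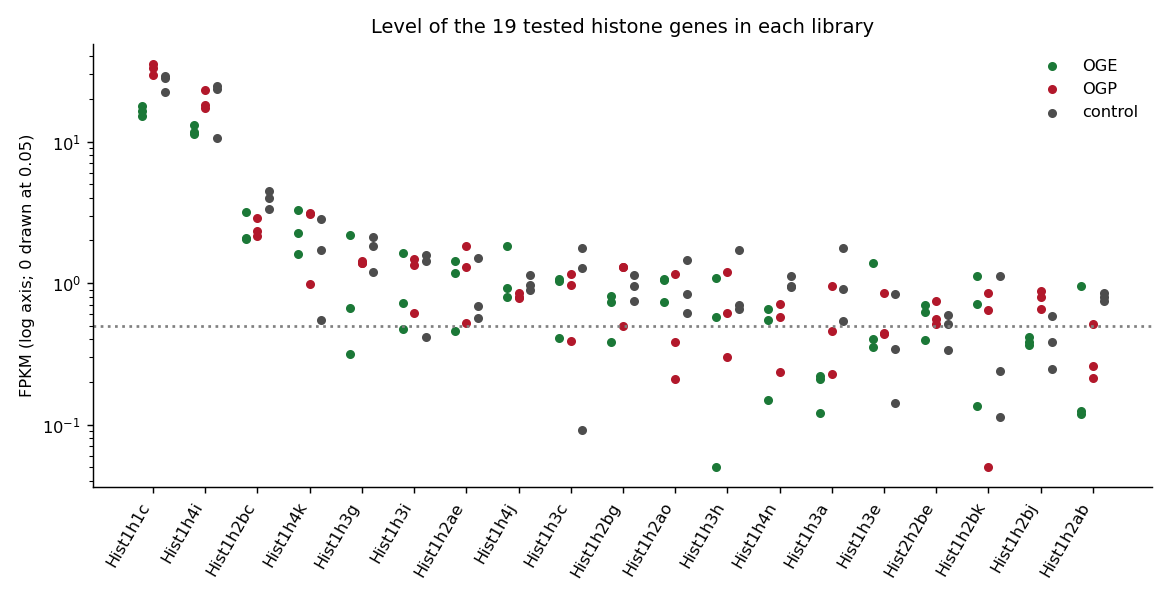
FPKM (log axis, 0 drawn at 0.05) of the 19 tested histone genes in each of the 3 OGE, 3 OGP and 3 control libraries, ordered by mean level; the dotted line is at 0.5 FPKM. Hist1h1c and Hist1h4i lie above 10 FPKM in all 9 libraries, Hist1h2bc between 2.06 and 4.51, and the points of most other genes overlap between groups.

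Hist1h1c, which encodes a linker histone that binds DNA between nucleosomes, was the highest member (chr13:23738808-23740367, plus strand). It had 16.5, 17.9 and 15.2 FPKM in OGE libraries, 29.5, 35.3 and 33.2 FPKM in OGP libraries, and 22.4, 29.2 and 28.1 FPKM in control libraries. Behind these values stood 369 to 473 reads in OGE libraries, 842 to 912 in OGP libraries and 611 to 814 in control libraries. OGE libraries were lowest and OGP libraries highest, and no 2 groups overlapped. Hist1h1c alone made up 93.7% of H1 reads in OGE cells, 96.3% in OGP cells and 96.6% in control cells. Hist1h1e and Hist1h1d had at most 19 reads per library, as did Hist1h1a and Hist1h1b.

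Hist1h4i, one of the H4 genes (chr13:22040636-22041362, minus strand), was next. It had 11.7, 11.3 and 13.1 FPKM in OGE libraries, 23.1, 18.1 and 17.2 FPKM in OGP libraries, and 10.6, 24.6 and 23.5 FPKM in control libraries. OGE libraries thus lay below all OGP libraries, while control replicate 1 lay below all 3 OGE libraries and the other control libraries above all 3. Hist1h2bc, an H2B gene known to give polyadenylated mRNA in human cells (chr13:23684199-23692908, plus strand), had 2.09, 3.17 and 2.06 FPKM in OGE libraries, 2.14, 2.90 and 2.34 FPKM in OGP libraries, and 4.51, 3.98 and 3.35 FPKM in control libraries. Both OGD groups lay below control and overlapped with each other. The model of Hist1h2bc held neither a stem-loop nor a poly(A) signal in its last 40 bases.

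**Figure D3:**
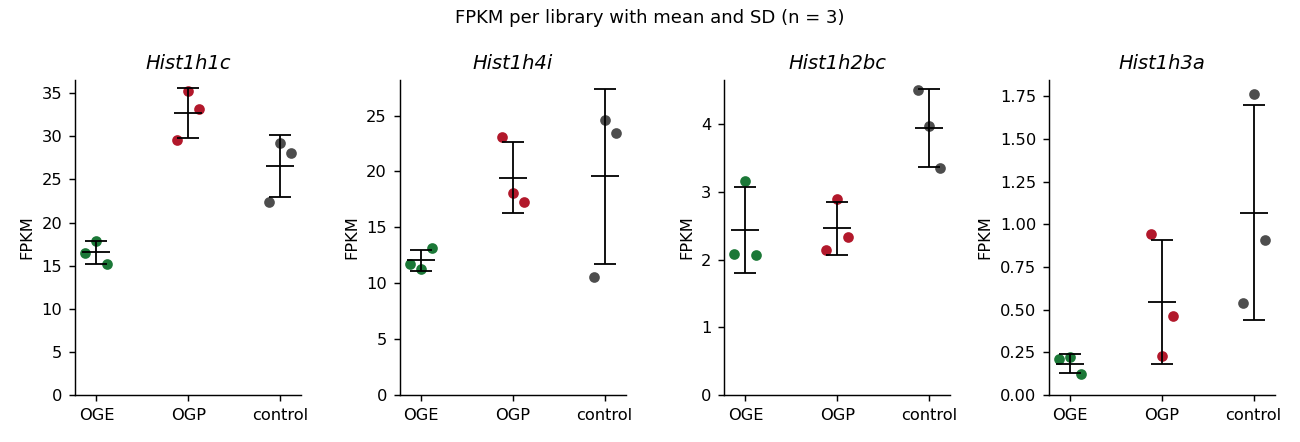
FPKM of Hist1h1c, Hist1h4i, Hist1h2bc and Hist1h3a in each library (points), with the mean and SD of 3 libraries in OGE, OGP and control cells; each panel has its own axis from 0. Hist1h1c is lowest in OGE cells (15.2 to 17.9 FPKM), Hist1h2bc is lower in both OGD groups than in control cells, and control replicate 1 of Hist1h4i lies apart at 10.6 FPKM.

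The next 5 members by level did not separate the groups in the same way. Hist1h4k had 1.62, 2.27 and 3.30 FPKM in OGE libraries, 3.08, 0.978 and 3.15 in OGP libraries, and 0.551, 2.83 and 1.72 in control libraries. Hist1h3g had 0.317, 0.669 and 2.19 FPKM in OGE libraries, 1.43, 1.38 and 1.39 in OGP libraries, and 1.19, 2.11 and 1.83 in control libraries. In both genes the groups overlapped. In Hist1h3g, OGE replicates 1 and 2 lay below every other library, and OGE replicate 3 above. Hist1h3i had 1.64, 0.718 and 0.470 FPKM in OGE libraries, 0.614, 1.49 and 1.35 in OGP libraries, and 0.418, 1.58 and 1.44 in control libraries. Hist1h2ae had 1.43, 1.17 and 0.458 FPKM in OGE libraries, 1.29, 0.520 and 1.83 in OGP libraries, and 0.569, 1.51 and 0.688 in control libraries. Here too the spread within a group was as wide as the distance between groups. Hist1h4j had 0.797, 0.916 and 1.83 FPKM in OGE libraries, 0.848, 0.789 and 0.794 in OGP libraries, and 0.888, 1.14 and 0.973 in control libraries. OGP libraries lay just below control libraries and OGE libraries overlapped both.

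Other members known for polyadenylated mRNA, or for expression in testis, were low. Hist2h2be, an H2B gene outside the Hist1 cluster, had 0.620, 0.699 and 0.394 FPKM in OGE libraries, 0.559, 0.746 and 0.516 in OGP libraries, and 0.590, 0.337 and 0.513 in control libraries, with overlap throughout. Hist3h2a had 0.193 to 0.330 FPKM in OGE libraries, 0.188 to 0.256 in OGP libraries and 0.226 to 0.330 in control libraries. Hist4h4 had 0.0413 to 0.0783 FPKM in OGE libraries, 0.0644 to 0.123 in OGP libraries and 0.0400 to 0.169 in control libraries. The models of Hist3h2a and Hist4h4 reach 1643 and 2445 bases past the stem-loop and end in a poly(A) signal. FPKM divides by this length, and the 2 genes had 83 and 37 reads over the 9 libraries. The testis genes Hist1h2aa and Hist1h2ba had no reads in any library, and Hist1h1t had 1 read in control replicate 1 alone.

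Summed over the 67 members, histone genes took 51.8, 53.5 and 54.0 RPM (reads per 1000000 reads in genes) in OGE libraries, 83.4, 88.2 and 84.2 in OGP libraries, and 60.7, 86.8 and 83.3 in control libraries. The means were 53.1 ± 1.19 in OGE cells, 85.3 ± 2.56 in OGP cells and 76.9 ± 14.2 in control cells (SD, n = 3 each). OGE libraries lay below all others, and control replicate 1 lay nearest to them. The log2 ratio of the means was -0.68 for OGE to OGP, -0.53 for OGE to control and 0.15 for OGP to control. The last of these became 0.00 without control replicate 1. In bulk RNA, fewer cells in S phase and less histone RNA per cell cannot be told apart. Nor can a change in the part of the histone mRNA that the beads retained.

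The H1 and H4 genes carried most of the difference between OGE and OGP cells, through 1 gene in each class, Hist1h1c and Hist1h4i. Hist1h1c took most H1 reads, as given above. Hist1h4i had 139 to 152 reads in OGE libraries, where all H4 genes had 183 to 219. In OGP libraries it had 204 to 332, where all H4 genes had 261 to 403. H1 genes took 28.2 ± 1.78 RPM in OGE cells, 53.3 ± 4.69 in OGP cells and 42.9 ± 5.79 in control cells (SD, n = 3 each). H4 genes took 12.2 ± 2.03 in OGE cells, 17.7 ± 2.56 in OGP cells and 17.9 ± 6.36 in control cells. H2A genes were at 2.49 ± 0.425 in OGE cells, 2.79 ± 0.520 in OGP cells and 2.86 ± 0.489 in control cells, which is within the spread of the libraries. H3 genes were at 3.39 ± 0.420 in OGE cells, 4.27 ± 0.503 in OGP cells and 4.70 ± 1.83 in control cells. H2B genes were at 6.79 ± 0.640 in OGE cells, 7.18 ± 0.213 in OGP cells and 8.47 ± 0.422 in control cells, with both OGD groups below all control libraries. This difference lay in Hist1h2bc. It had 72 to 91 of 147 to 153 H2B reads in control libraries, 44 to 55 of 115 to 137 in OGP libraries and 37 to 62 of 92 to 124 in OGE libraries. Without Hist1h1c, Hist1h4i and Hist1h2bc, the other 64 members took 14.9 ± 2.04 RPM in OGE cells, 16.9 ± 0.424 in OGP cells and 16.7 ± 3.59 in control cells, and these ranges overlapped between OGE cells and both other groups.

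**Figure D4:**
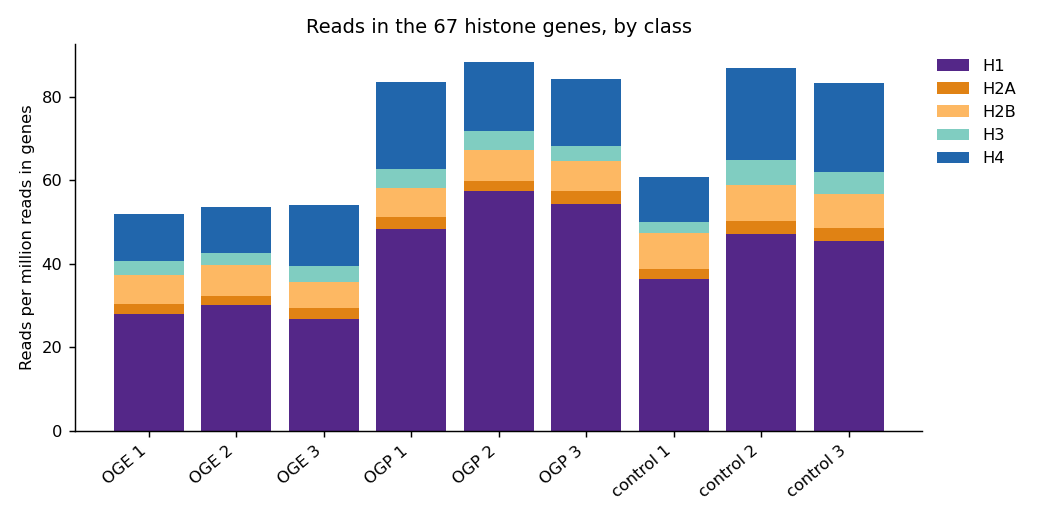
Reads in the 67 histone genes (RPM) in each OGE, OGP and control library, stacked by histone class. The totals are 51.8 to 54.0 in OGE libraries, 83.4 to 88.2 in OGP libraries and 60.7 to 86.8 in control libraries, with control replicate 1 lowest of its group, and H1 is the largest part in all 9.

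DEGs were genes with a change of 1.5-fold or more and an adjusted p no higher than 0.05, in limma on log2(FPKM + 0.5) over 13245 genes. The comparisons share libraries, so their values are given side by side and not as separate evidence. OGP cells were compared with control cells for the effect of OGD and reoxygenation. Hist1h2bc was lower in OGP cells (log2 fold change -0.59, SE 0.17, adjusted p = 0.0287), with 2.46 ± 0.396 FPKM in OGP cells and 3.95 ± 0.580 in control cells. It was the only call among the 19 members, so 0 were higher and 1 was lower, where 6.38% of all genes tested were called higher and 5.74% lower. By unadjusted p under 0.05, 2 members were higher and 2 lower, where 19.7% of all genes were higher and 22.0% lower. By voom on the recovered reads 0 were higher and 1 lower, against 7.91% and 6.71% of all genes. The groups did not overlap in 6 of 19 members (31.6%), against 42.9% of all genes tested. The median log2 fold change was 0.03 over members and 0.01 over all genes. For Hist1h1c the log2 fold change was 0.30 (SE 0.12, adjusted p = 0.0813), and every OGP library lay above control without the gene passing the threshold. Hist1h2bj had 0.873, 0.659 and 0.796 FPKM in OGP libraries and 0.247, 0.382 and 0.581 in control libraries, again without overlap, and did not pass (log2 fold change 0.51, SE 0.18, adjusted p = 0.0559). It rests on 2 to 8 reads per library. Hist1h2ab, with 37 reads over the 9 libraries, was called lower in OGP cells in a fit of the 6 libraries alone, but not in the main fit. Mitochondrial genes took 24508 to 32474 RPM in OGP libraries and 11020 to 23093 in control libraries, and their part in the values of Hist1h2bc was not tested. The call of Hist1h2bc was lost without control replicate 1, control replicate 2, OGP replicate 1 or OGP replicate 3, with log2 fold changes of -0.50, -0.58, -0.51 and -0.56.

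OGE cells were compared with OGP cells for the effect of the vesicles after OGD, within the limit on the medium given above. Hist1h1c was lower in OGE cells, at 16.5 ± 1.33 FPKM against 32.6 ± 2.90 in OGP cells, or 0.507 times the OGP mean (log2 fold change -0.96, SE 0.12, adjusted p = 0.000563). It was lower in 3 of 3 OGE libraries than in any OGP library. Marker lists and RNA classes moved as well. Of 6 microglia markers only Tmem119 passed the filter, and the list summed to 21.8 to 24.1 RPM in OGE libraries, 38.3 to 44.3 in OGP libraries and 28.8 to 41.2 in control libraries, with Cx3cr1 and Ptprc at or close to 0. Of 6 astrocyte markers only Slc1a3 passed, and the list summed to 23.6 to 28.0 in OGE libraries, 35.5 to 48.6 in OGP libraries and 79.8 to 95.2 in control libraries, with Aqp4 at 0. Oligodendrocyte markers, none of 6 over the filter, went the other way, at 4.72 to 6.03 RPM in OGE libraries, 3.44 to 4.80 in OGP libraries and 2.19 to 3.52 in control libraries, with Mag and Olig1 at 0. Annotated small nuclear RNAs were at 18.6 to 21.02 RPM in OGE libraries, 14.4 to 17.3 in OGP libraries and 12.5 to 17.7 in control libraries. Annotated rRNA was at 635, 789 and 1901 RPM in OGE libraries, 451 to 750 in OGP libraries and 610 to 720 in control libraries, with OGE replicate 3 far above the rest. Their part in the result was not tested. No other member was called, so 0 were higher and 1 was lower, against 3.39% and 4.73% of all genes tested. By unadjusted p under 0.05, 0 were higher and 3 lower, against 17.9% and 16.8% of all genes. By voom 0 were higher and 1 lower, against 4.66% and 5.13%. The groups did not overlap in 4 of 19 members (21.1%, and 45.4% of all genes), all 4 with OGE below. The median log2 fold change was -0.09 over members and 0.00 over all genes. The call of Hist1h1c held in all 20 alternatives run, with log2 fold changes of -1.03 to -0.90 and adjusted p of 0.000133 to 0.00441. Among these, dropping the fold threshold could not remove a call.

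Hist1h4i was at 12.04 ± 0.956 FPKM in OGE cells and 19.5 ± 3.15 in OGP cells, a mean of 0.619 times that of OGP cells, but did not pass (log2 fold change -0.66, SE 0.28, adjusted p = 0.124). The spread of its control libraries enters that test. In a fit of the 6 OGE and OGP libraries alone its adjusted p was 0.00668, and without control replicate 1 and OGE replicate 3 together, an alternative added after seeing the data, it was 0.00424. Hist1h2bc did not differ detectably (log2 fold change -0.02, SE 0.17), with means of 2.44 ± 0.631 FPKM in OGE cells and 2.46 ± 0.396 in OGP cells. Hist1h2bj was at 0.363, 0.383 and 0.418 FPKM in OGE libraries, below all OGP libraries, and did not pass (adjusted p = 0.0672). Without OGE replicate 3, Hist1h3g was called lower in OGE cells (log2 fold change -0.96, adjusted p = 0.0259), where with all libraries it had -0.47 (SE 0.37, adjusted p = 0.407).

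**Figure D5:**
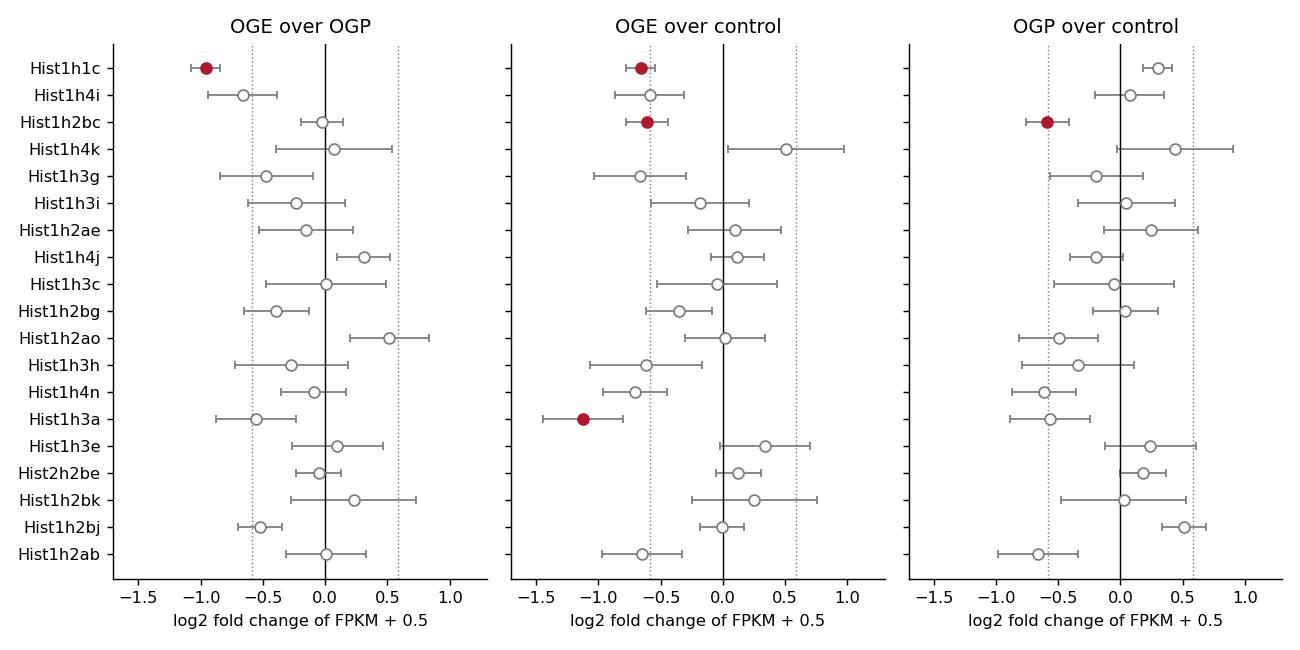
Log2 fold changes of FPKM + 0.5 with their SE for the 19 tested histone genes, ordered by mean level, for OGE over OGP, OGE over control and OGP over control; filled red points are called and dotted lines mark a 1.5-fold change. Hist1h1c is called in both comparisons with OGE cells, Hist1h2bc in both comparisons with control cells, and Hist1h3a in OGE over control alone, while SEs of many low genes cross 0.

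OGE cells were also compared with control cells. Here 3 members were lower and 0 higher. Hist1h1c was at 16.5 ± 1.33 FPKM in OGE cells and 26.6 ± 3.61 in control cells (log2 fold change -0.66, SE 0.12, adjusted p = 0.0033). Hist1h2bc was at 2.44 ± 0.631 FPKM in OGE cells and 3.95 ± 0.580 in control cells (log2 fold change -0.61, SE 0.17, adjusted p = 0.0276). Hist1h3a, an H3 gene (chr13:23761853-23762386, minus strand), had 0.210, 0.221 and 0.121 FPKM in OGE libraries and 0.536, 1.77 and 0.907 in control libraries (log2 fold change -1.13, SE 0.32, adjusted p = 0.0312). OGP libraries of Hist1h3a, at 0.946, 0.229 and 0.460 FPKM, lay above OGE libraries and overlapped control libraries. Its values come from 1 or 2 reads in OGE libraries, 2 to 10 in OGP libraries and 5 to 16 in control libraries, so few reads carry that call.

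In this comparison 15.8% of tested members were called, all lower, against 6.33% of all genes called lower and 5.14% called higher. With 19 members this is 3 genes. No member was higher at an unadjusted p under 0.05 and 4 were lower, where 18.0% of all genes were higher and 19.0% lower. By voom 0 were higher and 3 lower, against 7.10% and 6.79% of all genes. The groups did not overlap in 4 members (21.1%, and 38.2% of all genes), and the median log2 fold change was -0.18 over members, next to -0.00 over all genes. The call of Hist1h1c held in all 20 alternatives (adjusted p 0.000494 to 0.0163), again counting the fit without a fold threshold. That of Hist1h2bc was lost without control replicate 1, control replicate 2, OGE replicate 1 or OGE replicate 3, with log2 fold changes of -0.52, -0.60, -0.53 and -0.52. That of Hist1h3a was lost without any library of the 2 groups other than control replicate 1, with log2 fold changes of -1.17 to -0.82. Hist1h4i was not called (log2 fold change -0.59, SE 0.28, adjusted p = 0.158) but became so without control replicate 1 (-0.97, adjusted p = 0.000612). Hist1h2ab and Hist1h3g, not called with all libraries, were called lower without OGE replicate 3.

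Replication-independent histone genes make polyadenylated mRNA throughout the cell cycle, and were far higher in the same libraries. They took 2881 to 3072 RPM in OGE libraries, 3384 to 3695 in OGP libraries and 3054 to 3947 in control libraries. Of 11 listed, 10 were tested and 0 were called in any of the 3 comparisons. The groups did not overlap in 90% of those tested in OGE against OGP (3 above and 6 below), against 45.4% of all genes. In each comparison with control it was 20%, against 42.9% of all genes for OGP and 38.2% for OGE. At an unadjusted p under 0.05, 0 were higher and 1 lower in OGP against control, 2 higher and 3 lower in OGE against OGP, and 0 higher and 2 lower in OGE against control. Among all genes it was 19.7% higher and 22.0% lower, 17.9% and 16.8%, and 18.0% and 19.0%. H1f0, a linker histone of resting and differentiated cells, was at 305 ± 17.8 FPKM in OGE cells, 414 ± 29.4 in OGP cells and 383 ± 41.3 in control cells (SD, n = 3 each). Its difference between OGE and OGP cells was below the fold threshold (log2 fold change -0.44, SE 0.10, adjusted p = 0.0175). H2afx, whose product is phosphorylated at DNA breaks and whose mRNA can end either way, was at 51.8 ± 6.16 FPKM in OGE cells, 56.1 ± 1.86 in OGP cells and 64.4 ± 12.9 in control cells. H3f3b, a gene for the replacement histone H3.3, had 350 ± 16.03 FPKM in OGE cells and 489 ± 63.7 in control cells (log2 fold change -0.47, SE 0.11, adjusted p = 0.0117), again under the fold threshold.

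Genes that make and process histone mRNA came next. Of 18 listed, 17 were tested and 0 were called in any comparison. At an unadjusted p under 0.05, 1 was higher and 3 were lower in OGP against control, 3 higher and 2 lower in OGE against OGP, and 0 higher and 3 lower in OGE against control. The shares of all genes were 19.7% higher and 22.0% lower, 17.9% and 16.8%, and 18.0% and 19.0%. Slbp, which encodes the stem-loop binding protein, was at 28.5 ± 0.793 FPKM in OGE cells, 33.5 ± 3.81 in OGP cells and 28.1 ± 1.01 in control cells (SD, n = 3 each). Its log2 fold change was -0.22 between OGE and OGP cells (SE 0.09, adjusted p = 0.11). Npat, the activator of histone transcription in S phase, was at 12.3 ± 1.22 FPKM in OGE cells, 10.1 ± 0.365 in OGP cells and 9.75 ± 3.47 in control cells. Lsm11, a protein of the U7 particle that cuts histone mRNA, was at 1.70 ± 0.202 FPKM in OGP cells and 2.69 ± 0.0619 in control cells (log2 fold change -0.54, SE 0.10, adjusted p = 0.00363), just under the fold threshold. Upf1, a helicase needed for the decay of histone mRNA, was at 27.8 ± 3.09 FPKM in OGE cells, 20.6 ± 2.10 in OGP cells and 30.2 ± 2.70 in control cells. It too was under the fold threshold in OGP against control (log2 fold change -0.55, SE 0.11, adjusted p = 0.00607) and in OGE against OGP (0.42, SE 0.11, adjusted p = 0.0257). Lsm10, the partner of Lsm11, was at 15.6 ± 0.739 FPKM in OGE cells and 20.1 ± 0.705 in OGP cells (log2 fold change -0.36, SE 0.09, adjusted p = 0.0258).

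General cleavage and polyadenylation factors, which make the 3′ ends that the beads retain, gave 0 calls among 16 tested in all 3 comparisons. At an unadjusted p under 0.05, 1 was higher and 3 lower in OGP against control, 2 higher and 1 lower in OGE against OGP, and 2 higher and 2 lower in OGE against control. For all genes the shares were 19.7% higher and 22.0% lower, 17.9% and 16.8%, and 18.0% and 19.0%. Of RNAs without a poly(A) tail, 1 of 10 passed the filter. This was Rn7sk, at 3.93 ± 3.18 FPKM in OGE cells, 3.60 ± 1.04 in OGP cells and 1.69 ± 1.11 in control cells, with no call in any comparison. Of the other 9, 5 were at 0 in every group. Annotated small nucleolar RNAs summed to 54.9 to 67.1 RPM in OGE libraries, 57.3 to 65.3 in OGP libraries and 41.1 to 45.4 in control libraries. How far RNA without a tail entered the histone values was not tested.

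S-phase genes, which replicate DNA or start its replication, were all measured. Of 40 tested, 1 was higher and 1 lower in OGP against control, 2 were higher and 0 lower in OGE against OGP, and 0 in either direction in OGE against control by limma with adjustment. In the same order, 6.38% of all genes were called higher and 5.74% lower, 3.39% and 4.73%, and 5.14% and 6.33%. At an unadjusted p under 0.05, 11 were higher and 5 lower in OGP against control, 4 higher and 10 lower in OGE against OGP, and 8 higher and 5 lower in OGE against control. Of all genes, 19.7% were higher and 22.0% lower, 17.9% and 16.8%, and 18.0% and 19.0%. Summed, they took 6591 to 6692 RPM in OGE libraries, 6906 to 7011 in OGP libraries and 6551 to 6645 in control libraries, so that OGP libraries lay above all others. Pola1, the catalytic subunit of DNA polymerase alpha, was higher in OGP cells, at 24.3 ± 1.56 FPKM against 15.3 ± 3.11 in control cells (log2 fold change 0.67, SE 0.14, adjusted p = 0.00617). Ccne1, which encodes cyclin E1 of the entry into S phase, was lower, at 6.91 ± 0.186 FPKM in OGP cells and 12.3 ± 0.646 in control cells (log2 fold change -0.79, adjusted p = 0.000753). Rrm2, a ribonucleotide reductase subunit, was higher in OGE cells, at 94.6 ± 2.31 FPKM against 61.3 ± 0.492 in OGP cells (log2 fold change 0.62, adjusted p = 0.00088). E2f2 was higher as well, at 2.99 ± 0.523 FPKM in OGE cells and 1.48 ± 0.165 in OGP cells (log2 fold change 0.81, adjusted p = 0.0025). Pcna was at 172 ± 5.61 FPKM in OGE cells and 217 ± 16.2 in OGP cells (log2 fold change -0.33, adjusted p = 0.021), under the fold threshold. The part of the cell cycle in the histone values was not tested.

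Histone chaperones, which carry histones to DNA, were tested for 18 genes. In OGP against control 0 were called, with 0 higher and 4 lower at an unadjusted p under 0.05, against 19.7% and 22.0% of all genes. In each comparison with OGE cells 1 gene (5.56%) was lower. Of all genes, 4.73% were called lower in OGE against OGP and 6.33% in OGE against control. The gene was Daxx, the H3.3 chaperone. It was at 16.5 ± 0.668 FPKM in OGE cells, 38.2 ± 1.799 in OGP cells and 44.9 ± 2.06 in control cells. Its log2 fold change was -1.19 for OGE over OGP (SE 0.07, adjusted p = 9.95e-06) and -1.42 for OGE over control (SE 0.07, adjusted p = 2.8e-06). The S-phase chaperones Chaf1a and Chaf1b, subunits of CAF-1, were not called in any comparison.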

How the data were processed

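The authors made paired-end libraries of poly-T selected RNA, aligned reads with HISAT2 2.0.5 to mm10 (submitters' processing notes and methods), counted reads per gene with featureCounts and deposited FPKM. The tool that made the FPKM and the strand setting are not given in the sources used here. FPKM times gene length, divided by the step of each library, gave whole reads (largest distance from whole under 0.1), 15026700 to 19476806 per library.

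Genes averaging 0.5 FPKM or more across libraries entered a single model of 3 groups on log2(FPKM + 0.5), using limma (version 3.58.1, trended prior, under R 4.3.3). Benjamini-Hochberg adjustment covered the 13245 genes tested. Fold changes on that scale understate those of low genes. The fit was checked on simulated data. Sequences were read from GENCODE M21 transcripts, whose start and end matched the deposited ones for all 67 members, and from RefSeq promoters of GRCm38.p6. Values after ± are the SD of 3 libraries.

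The members and gene lists were chosen with earlier results of these data known. Named with values in each library were the 8 members of highest mean, called members, and textbook polyadenylated or testis members. From each list, up to 5 genes of smallest p and Slbp, Npat and H2afx could be named. Hist1h2bj and Hist1h2ab were added after their values were seen. Tut4 and Tut7 stand for Zcchc11 and Zcchc6. Alternatives were other pseudocounts, filters, fold thresholds and scalings, robust variances, 6 libraries, protein-coding genes alone, a replicate block, voom on the recovered reads and leaving out each library. Leaving out both control replicate 1 and OGE replicate 3, and sums with libraries left out, were chosen after seeing the data. Protein sequences were not analysed here.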

Additional observations from a re-analysis of the deposited data

How the results depend on the processing

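Hist1h1c in OGE against OGP and in OGE against control kept its direction and its call in all 20 alternatives each. In these counts and those that follow, dropping the fold threshold could not remove a call. Hist1h2bc kept its call in 12 of 20 in both of its comparisons (adjusted p 0.0157 to 0.0886 in OGP against control and 0.00973 to 0.111 in OGE against control), and Hist1h3a in 12 of the 19 that tested it (0.00975 to 0.101). No direction turned among these genes. The number of members called in OGP against control (1) was 0 with a pseudocount of 1, 0 with median of ratios scaling, 2 with 6 libraries, 0 without control replicate 1 and OGE replicate 3 together, and 0 to 2 when leaving out 1 library. In OGE against OGP (1) it was 2 with no filter, 2 with 6 libraries, 3 without those 2 libraries together, and 1 to 2 when leaving out 1 library. In OGE against control (3) it was 2 with a pseudocount of 1, a filter of 1 FPKM or 6 libraries. It was 4 with protein-coding genes alone, 1 with no filter, 5 without those 2 libraries together, and 1 to 3 when leaving out 1 library. With no filter, 58 members were tested and Hist1h2ah, with 1, 3 and 2 reads in OGP libraries and 0 in all others, was called in both comparisons with OGP, higher in OGP cells, while the calls of Hist1h2bc and Hist1h3a were lost. A block for the replicate number gave 1, 1 and 2 calls in OGP against control, OGE against OGP and OGE against control. Deviations of libraries of the same number correlated over 0.1 in 2 of 9 such pairs (-0.18 to 0.32). This does not show pairing, but with 3 libraries a group it cannot exclude it. The log2 ratio of the summed reads was -0.060 without Hist1h1c in OGP against control (0.15 with it), and -0.35 without Hist1h1c and -0.59 as a sum of FPKM in OGE against OGP (-0.68). Leaving out 1 library gave 0.00 to 0.24 in OGP against control, -0.70 to -0.66 in OGE against OGP and -0.68 to -0.44 in OGE against control. The cause of these changes was not tested. Outside the 3 highest members no gene had over 32 reads in a library, and differences in these low genes were often not detectable at this depth.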
